A study of Mus musculus with 8 samples.

Results

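The natural killer receptor gene complex is a stretch of mouse chromosome 6 in which genes for C-type lectin-like receptors lie side by side. Its members here were the 40 genes whose symbol begins with Klr or Clec in the GENCODE annotation of GRCm38 and that lie between 128 and 131 Mb, out of 55413 annotated genes on the main chromosomes. Of the 40 members, 13 were Klra genes (10 protein-coding genes and 3 pseudogenes) and 27 were other Klr or Clec genes (23 protein-coding genes and 4 pseudogenes). The last 4 include Clec7a, which the annotation lists as a polymorphic pseudogene and which is treated below as a receptor gene. Each gene was taken with 2 kb on each side. The interval was selected on the peak counts of these same lists along chromosome 6, so its density of peaks is given as a description, without a test.

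The data were 4 lists of 5-hydroxymethylcytosine (5-hmC) peaks from hMeDIP-seq, in which an antibody pulls down the sheared fragments that carry 5-hmC and these are sequenced. They came from sorted pro-B cells (B220+CD43+IgM-) of the bone marrow of C57BL/6 mice aged 4 to 6 weeks. HDAC7-deficient cells were from Hdac7 fl/- mice (2 libraries), which carry 1 floxed and 1 null allele and in which mb1-Cre, a recombinase expressed from the B lineage gene Cd79a, removes the floxed allele. The controls, called wild-type, were Hdac7 +/- littermates (2 libraries) and thus also carry 1 null allele. Whether they also carried the Cre, and whether a library held 1 animal or a pool, is not given in the sources used here, and p-values measure only the spread between these libraries. The lists hold peak positions alone, so sequencing depth is unknown, and neither the pro-B identity of the cells nor the loss of Hdac7 could be checked in them. The Hdac7 gene with its flanks held 60 and 47 peaks in the wild-type lists against 56 and 47 peaks in the HDAC7-deficient lists.

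Klra genes encode the Ly49 receptors, which natural killer cells use to read MHC class I molecules on other cells. Most Ly49 receptors inhibit the cell through a phosphatase-binding motif in their tail, whereas others activate it through the adaptor TYROBP (DAP12). The Klrc and Klrd1 genes encode the NKG2 and CD94 chains, Klrk1 encodes the activating receptor NKG2D, and the Klrb1 genes encode the NKR-P1 receptors, whose ligands are products of the neighbouring Clec2 genes. Clec7a, Clec9a, Clec12a and Clec1b are receptors of myeloid cells, dendritic cells or platelets. These receptors are not part of the B cell program. TET enzymes oxidize methylated cytosine to 5-hmC, which in mammals sits mainly at CpG sites.

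The lists held between 1305200 and 1414862 peaks per library, and between 1356 and 1605 of them lay in the interval. HDAC7-deficient replicate 2 stood apart on the X chromosome, where it had 8.98 peaks for every 100 peaks on chromosomes 1 to 13, whereas the wild-type libraries had 6.00 and 5.98 and HDAC7-deficient replicate 1 had 4.67. On chromosome 6 the same ratio was between 7.79 and 7.91 in all 4 libraries. With 2 libraries per genotype, the smallest two-sided p of an exact permutation test is 0.333, so no difference between genotypes could be called. Values of the 2 libraries of a genotype are given in the order of their replicate numbers throughout.

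Before the values, the copies of 1 intron segment are shown, because near-identical copies of a segment recur along the Klra genes and carried peaks in different libraries. The segment was chosen after the values had been seen, as a Klra region of at most 300 bp with a peak in all 4 libraries. It lies in an intron of the pseudogene Klra11-ps at chr6:130087406-130087685 (GRCm38), and 5 other Klra genes hold a copy of 280 aligned bases that is between 93.6% and 95.4% identical to it. The plus strand is printed 5′ to 3′ for 4 of these 6 copies, and capitals mark the CpG, of which each has 1.

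Klra11-ps, chr6:130087406-130087685: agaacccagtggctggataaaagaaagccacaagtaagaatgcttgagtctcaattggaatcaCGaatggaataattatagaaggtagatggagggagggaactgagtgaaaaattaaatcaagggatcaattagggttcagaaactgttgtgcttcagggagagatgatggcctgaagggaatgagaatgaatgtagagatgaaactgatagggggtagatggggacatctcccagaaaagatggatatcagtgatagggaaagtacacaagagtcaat

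Klra9, chr6:130183478-130183757: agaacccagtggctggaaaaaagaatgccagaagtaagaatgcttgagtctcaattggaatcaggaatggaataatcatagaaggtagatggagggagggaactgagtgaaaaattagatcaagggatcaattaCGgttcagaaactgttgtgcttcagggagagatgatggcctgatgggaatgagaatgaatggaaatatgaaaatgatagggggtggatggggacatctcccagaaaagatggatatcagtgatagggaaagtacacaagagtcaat

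Klra10, chr6:130273751-130274030: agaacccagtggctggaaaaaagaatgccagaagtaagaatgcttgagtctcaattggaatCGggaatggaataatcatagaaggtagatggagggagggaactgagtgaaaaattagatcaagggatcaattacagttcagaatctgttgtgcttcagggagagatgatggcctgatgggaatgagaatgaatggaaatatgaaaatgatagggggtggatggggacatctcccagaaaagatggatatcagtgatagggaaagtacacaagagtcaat

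Klra3, chr6:130328157-130328436: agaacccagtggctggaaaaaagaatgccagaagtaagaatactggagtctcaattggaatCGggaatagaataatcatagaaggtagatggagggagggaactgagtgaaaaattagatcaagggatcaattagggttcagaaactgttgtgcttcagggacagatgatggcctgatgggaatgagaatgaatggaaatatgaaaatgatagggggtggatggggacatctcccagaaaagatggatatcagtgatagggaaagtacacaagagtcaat

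In Klra11-ps, peaks covered 280 and 94 bp of the segment in the wild-type lists against 204 and 229 bp in the HDAC7-deficient lists. The copy in Klra3, the gene of the inhibitory receptor Ly49C, was covered by 160 and 193 bp of peak in HDAC7-deficient replicates 1 and 2 and had no wild-type peak. The copy in Klra9 (Ly49I) had 167 bp of peak in HDAC7-deficient replicate 1 alone, and the copy in Klra10 had none in any library. All 4 printed copies are intronic, and they differ in whether a peak was called and in which library.

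The copy in Klra14-ps (chr6:130153527-130153806) had 125 bp of peak in HDAC7-deficient replicate 1, and the copy in Klra8 (chr6:130120055-130120334) had 207 bp in HDAC7-deficient replicate 2. Thus the 5 near copies outside Klra11-ps had a peak in 0, 0, 3 and 2 cases in wild-type replicates 1 and 2 and HDAC7-deficient replicates 1 and 2. Near copies are those at least 90% identical. The same count over comparable segments was not computed, and copies this alike are not separate observations. The copy in Klra17 (69.1% identical) was covered by 282 to 285 bp of peak in every library, and the copy in Klra5 (83.5% identical) by 242 bp in wild-type replicate 1 alone. Between 40.0% and 80.4% of the positions of the 6 near-identical copies start a 50-base word that is found once in the genome, against 100% in the copies of Klra17 and Klra5. A read no longer than such a word cannot be placed on 1 copy by its sequence where the word is repeated. The read length and the placing of reads with several matches are not given in the sources used here, so a peak in 1 of these copies is uncertain as to the copy. With words of 100 bases, 91.3% of the Klra sequence was unique, against 77.7% with words of 50 bases.

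Some copies of other Klra regions had peaks in wild-type libraries too. The other Klra region of at most 300 bp with a peak in all 4 libraries lies in an intron of Klra6 (chr6:130020522-130020795). Parts of Klra5, Klra10, Klra4 and Klra17 aligned to 199 to 204 bases of this region of 274 bp (83.2% to 87.9% identical). Whether they are copies made with the genes or a repeat found elsewhere too was not tested. These parts had no wild-type peak. Those in Klra5 and Klra10 had 132 and 36 bp of peak in HDAC7-deficient replicate 1 alone. The less similar part of Klra7 that aligned to the region (67.6% identical) was covered by 169 and 164 bp of peak in the wild-type lists against 133 and 0 bp in the HDAC7-deficient lists. A region of Klra10 with peaks in the HDAC7-deficient libraries alone has a copy in Klra3 (96.6% identical) that had 149 bp of peak in wild-type replicate 2 alone. Its copy in Klra11-ps (93.9% identical) had 162 bp in HDAC7-deficient replicate 2 alone. Those in Klra8 and Klra9 (92.5% and 92.1% identical) had 133 and 158 bp in HDAC7-deficient replicate 1 alone. Only 15.4% of the 50-base words of this Klra10 region are unique. A region in the flank of Klra3 also had peaks in the HDAC7-deficient libraries alone. Its copy in Klra11-ps (90.4% identical) had 75 bp of peak in wild-type replicate 1 and 203 bp in HDAC7-deficient replicate 2. That in Klra8 (92.7% identical) had 157 bp in HDAC7-deficient replicate 1 alone.

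**Figure D1:**
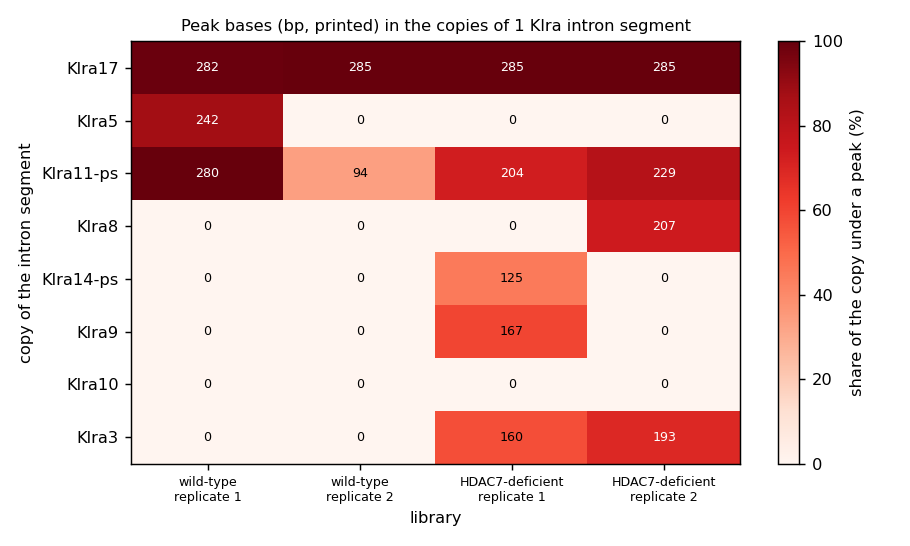
Peak bases (bp, printed in each cell) in each library over the copies of 1 intron segment in 8 Klra genes, in genome order from the top, with the colour giving the share of the copy under a peak. Klra17 and Klra11-ps had a peak in all 4 libraries, whereas the copies of Klra8, Klra14-ps, Klra9 and Klra3 had peaks in HDAC7-deficient libraries alone.

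The Klra genes were poor in 5-hmC peaks, while the other members were close to the rest of the chromosome. The Klra windows (289 kb) held 26.4 and 35.9 peak bases per kb in the wild-type lists against 50.5 and 48.6 in the HDAC7-deficient lists. The other members (472 kb) held 85.2 and 94.4 peak bases per kb in the wild-type lists against 80.4 and 94.7 in the HDAC7-deficient lists. The rest of chromosome 6 held 92.6 and 107 in the wild-type lists against 91.7 and 102 in the HDAC7-deficient lists. In each library the Klra genes were thus at 0.310, 0.380, 0.628 and 0.513 times the density of the other members (mean 0.458 ± 0.142, SD, n = 4 libraries). The median Klra gene had 35.0 peak bases per kb over the 4 libraries, at the 8.24th percentile of the 52374 genes with a peak, and the median other member had 92.5, at the 46.0th percentile.

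The density was higher in the first part of the interval than in the Klra genes and beyond them. Of the 30 windows of 100 kb, the densest (chr6:128700001-128800000, with Klrb1 and Klrb1c) held a mean of 140 peak bases per kb. The sparsest window with a member (chr6:130100001-130200000, with Klra8, Klra14-ps and Klra9) held 1683 and 1211 peak bases in the wild-type lists against 5617 and 2465 in the HDAC7-deficient lists. It lay at the 0.410th percentile of all windows of chromosome 6. The sparsest window of all held no member and lay beyond the Klra genes (chr6:130700001-130800000, 22.8 peak bases per kb). The sparse stretch therefore was not bounded by the Klra genes, as the 613 kb from the last of them to the end of the interval held a mean of 61.4 peak bases per kb. Between the Klra genes, inside their span of 556 kb (chr6:129831154-130386874), the mean was 74.6.

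**Figure D2:**
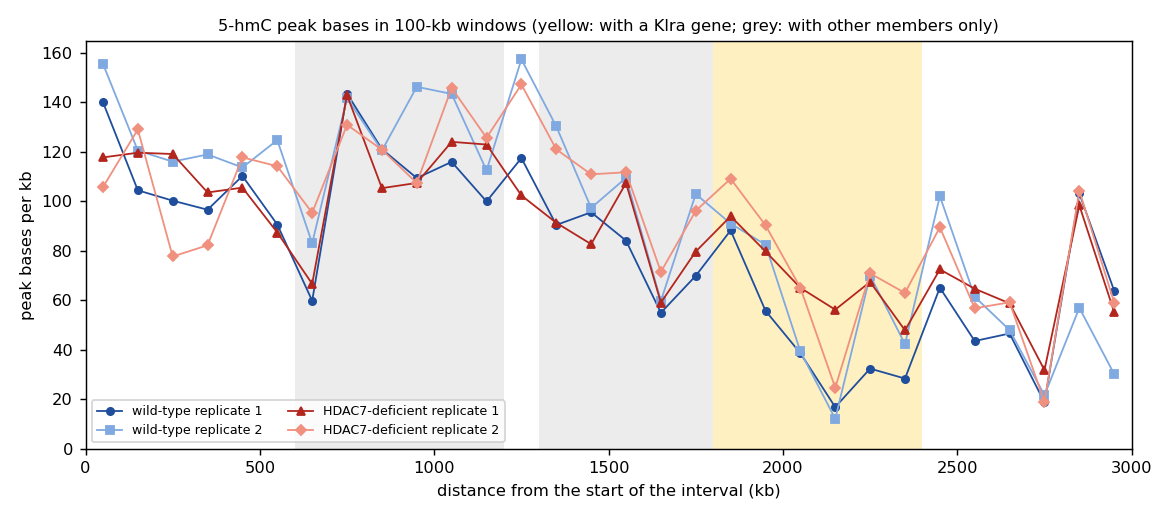
Peak bases per kb (vertical axis) in each library over the 30 windows of 100 kb, against the distance from the start of the interval in kb, with windows that hold a Klra gene in yellow and windows that hold other members alone in grey. All 4 lines drop after the first yellow window, which holds Klra17 and Klra5. The lowest yellow window holds 1211 peak bases in wild-type replicate 2, and the lines stay low in several windows beyond the yellow ones.

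The 2 genes with these name stems that flank the interval show where its limits fall. Before it, the nearest was Clec4e (chr6:123281789-123289870), which does not border the interval. Clec4e held 210 and 167 peak bases per kb in the wild-type lists against 182 and 117 in the HDAC7-deficient lists. After it, the nearest was Klra2 (chr6:131219223-131247362), which the rule leaves out by its position. Klra2 held 29.3 and 132 peak bases per kb in the wild-type lists against 55.0 and 64.9 in the HDAC7-deficient lists, with the wild-type libraries on both sides of the HDAC7-deficient ones. The first and last members inside, Klrb1a and Klra1, are described with their groups.

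Compared between genotypes, the Klra genes held more peaks in the HDAC7-deficient libraries. The counts were 50 and 69 peaks in the wild-type lists against 98 and 78 in the HDAC7-deficient lists, so that the groups did not overlap. The ratio of means was 1.48 ± 0.410 (SD propagated from 2 libraries a genotype; two-sided exact permutation test, p = 0.333, the smallest it can give). Peaks covered 7627 and 10350 bases of the Klra windows in the wild-type lists against 14574 and 14025 in the HDAC7-deficient lists, a ratio of 1.59 ± 0.344 (exact permutation p = 0.333). Relative to the other members, the ratio of the Klra density was 1.65 ± 0.334 (exact permutation p = 0.333). Without Klra1, the gene with the largest difference in bases, the ratio was 1.35 for peaks (exact permutation p = 0.667, with overlapping groups) and 1.47 for bases (exact permutation p = 0.333). Without Klra17, the densest Klra gene, the ratios were 1.66 and 1.77.

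The sums of the other members lay closer together. They held 233 and 234 peaks in the wild-type lists against 258 and 242 in the HDAC7-deficient lists, a ratio of 1.07 ± 0.0486 (exact permutation p = 0.333), and 40203 and 44531 against 37903 and 44656 peak bases, a ratio of 0.974 ± 0.133 (exact permutation p = 1.00). The rest of chromosome 6 had ratios of 1.01 ± 0.0823 for peaks and 0.968 ± 0.125 for bases (exact permutation p = 0.667 for each). The sequence between the Klra genes had a ratio of 1.32 ± 0.284 for bases, and the sequence after them, without members, of 1.15 ± 0.0480 (exact permutation p = 0.333 for each). In both, as in the Klra genes, the HDAC7-deficient libraries lay above the wild-type ones. Wild-type replicate 1, the lowest library in the Klra genes, also had the fewest peaks of all 4 lists. By peak bases the smallest list was HDAC7-deficient replicate 1, with 229967837 against 235434671 in wild-type replicate 1. Scaled to the rest of chromosome 6, the Klra ratios were 1.47 for peaks and 1.66 for bases. The part that depth played in the differences was not tested.

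**Figure D3:**
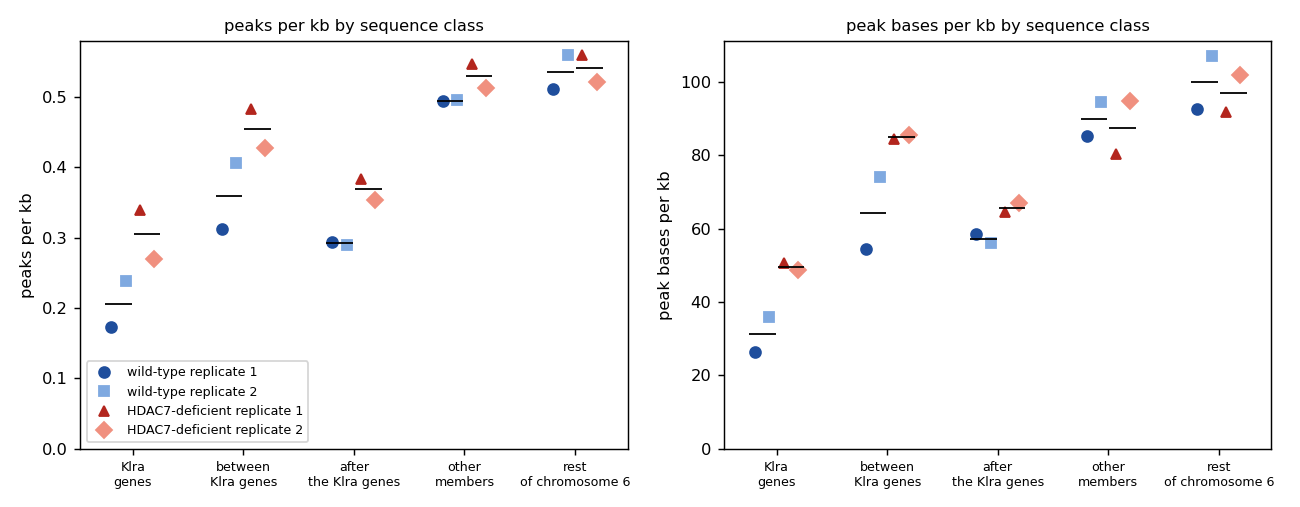
Peaks per kb (left) and peak bases per kb (right) of each library, as points, and the mean of each genotype, as bars, in the Klra genes, the sequence between and after them, the other members and the rest of chromosome 6. The HDAC7-deficient points lie above the wild-type points in the first 3 classes (50.5 and 48.6 against 26.4 and 35.9 peak bases per kb in the Klra genes) and overlap them in peak bases in the last 2.

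Member by member, in 8 of the 40 genes each HDAC7-deficient list held more peaks than each wild-type list, and in 1 it held fewer, against a background of 11.0% of genes higher and 9.45% lower. Of the 13 Klra genes, 3 were higher and 0 lower in peaks, and of the 27 others 5 were higher and 1 lower. By peak bases, 12 members were higher and 4 lower, against 12.4% and 16.5% of all genes. Among the Klra genes 8 were higher and 1 lower by bases, and among the others 4 and 3. The mean of the HDAC7-deficient libraries was above the wild-type mean in 12 of 13 Klra genes by peaks and in 10 of 13 by bases. Among the 27 others it was above in 13 by peaks and in 11 by bases. The share of all genes with a higher mean was not computed. The median log2 ratio of bases was 1.05 in the Klra genes, -0.105 in the others and -0.04 over all genes. Neighbouring Klra genes share sequence, so they are not independent measurements of the genotypes.

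**Figure D4:**
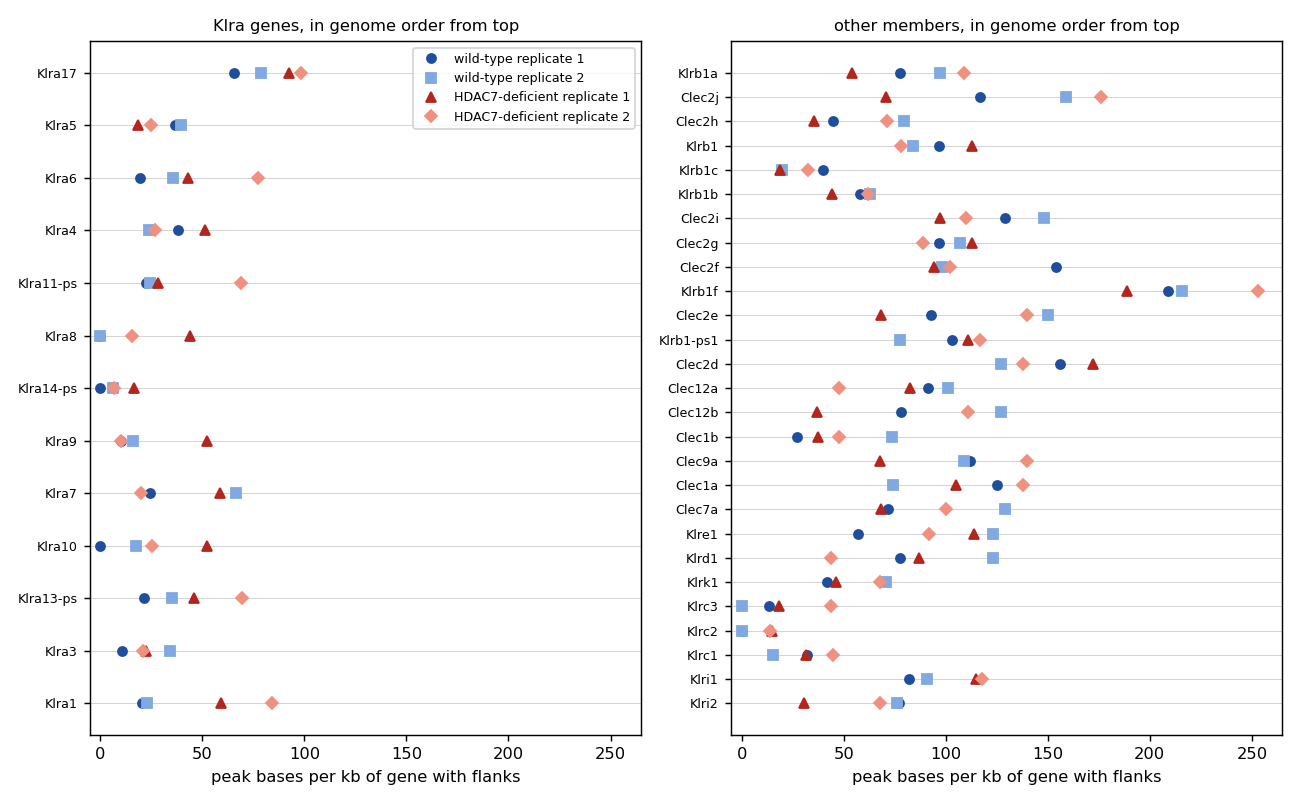
Peak bases per kb of each member with its flanks, in each library, for the 13 Klra genes (left) and the 27 other members (right), in genome order from the top. Both red symbols lie to the right of both blue symbols in 8 Klra genes, such as Klra1 (59.2 and 84.1 in the HDAC7-deficient lists), and to the left in Klra5.

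Among the inhibitory Ly49 genes, Klra1 (Ly49A, a receptor for the class I molecule H2-D; chr6:130363917-130386874, minus strand) had the largest difference in the number of peak bases of the members. It held 3 and 7 peaks in the wild-type lists against 12 and 17 in the HDAC7-deficient lists. Peak bases were 552 and 619 against 1597 and 2268, a ratio of 3.30. No wild-type value reached an HDAC7-deficient one in either measure, and 92.9% of the 50-base words of the gene with its flanks are unique. In 4 regions a peak was present in each HDAC7-deficient list and absent from the wild-type lists. The 278 bp of the last of these, which overlaps a coding exon 6378 bp from the start of the gene, are shown because 99.6% of their words are unique, with the CpG in capitals.

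Klra1, chr6:130380358-130380635, plus strand: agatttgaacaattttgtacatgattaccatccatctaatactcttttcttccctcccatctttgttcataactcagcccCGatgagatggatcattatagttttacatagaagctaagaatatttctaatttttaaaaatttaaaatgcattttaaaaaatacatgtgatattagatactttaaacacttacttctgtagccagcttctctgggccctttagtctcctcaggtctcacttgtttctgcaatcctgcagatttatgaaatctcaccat

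The genes of 3 other inhibitory receptors had overlapping groups in bases. Klra3 (Ly49C; chr6:130323289-130337574) held 192 and 624 peak bases in the wild-type lists against 414 and 381 in the HDAC7-deficient lists. Klra9 (Ly49I; chr6:130178675-130193112) held 189 and 299 against 964 and 186, so that HDAC7-deficient replicate 1 alone was high. Klra7 (Ly49G; chr6:130218605-130233322) held 459 and 1242 against 1097 and 369, with 1 low and 1 high library in each genotype.

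Klra5 (Ly49E; chr6:129898996-129917650) was the single Klra gene with lower peak bases in both HDAC7-deficient libraries, at 829 and 891 in the wild-type lists against 414 and 563 in the HDAC7-deficient lists. Its peak counts, 4 and 6 against 5 and 4, overlapped. Klra6 (Ly49F; chr6:130013033-130026954) was higher, with 345 and 637 bases in the wild-type lists against 772 and 1382 in the HDAC7-deficient lists.

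The activating Ly49 receptors, which signal through TYROBP, are encoded by Klra8 (Ly49H, known for recognition of a cytomegalovirus protein) and Klra4 (Ly49D). Klra8 (chr6:130115226-130129898) had no peak in either wild-type library and 5 and 2 peaks, covering 819 and 290 bases, in HDAC7-deficient replicates 1 and 2. As both wild-type values are 0, no fold is given. No peak of 1 HDAC7-deficient library overlapped a peak of the other in this gene, and 61.6% of its 50-base words are unique. Klra4 (chr6:130043731-130067271) held 1044 and 658 bases in the wild-type lists against 1410 and 743 in the HDAC7-deficient lists, with overlapping groups.

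Klra17 (Ly49Q, known from plasmacytoid dendritic cells; chr6:129831154-129876672) opens the cluster and was its densest gene, with a mean of 83.7 peak bases per kb. It held 3244 and 3906 peak bases in the wild-type lists against 4575 and 4857 in the HDAC7-deficient lists, a ratio of 1.32, while its peak counts overlapped (17 and 23 against 23 and 22). It also had the most CpG sites of the cluster, 7.77 per kb against a median of 3.79. The next densest Klra gene, Klra1, held a mean of 46.7 peak bases per kb.

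Klra10 (Ly49J; chr6:130269194-130281928) held 0 and 293 peak bases in the wild-type lists against 878 and 424 in the HDAC7-deficient lists, a ratio of 4.44 on few bases. Only 58.6% of its 50-base words are unique, the second lowest share of the cluster after Klra9, at 52.8%. The 3 pseudogenes all had more peak bases in both HDAC7-deficient libraries, with 355 and 384 against 443 and 1086 in Klra11-ps, 418 and 688 against 899 and 1356 in Klra13-ps, and 0 and 109 against 292 and 120 in Klra14-ps. Klra14-ps was the sparsest Klra gene, at a mean of 7.33 peak bases per kb, and its highest wild-type and lowest HDAC7-deficient values were 109 and 120 bases.

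The Klrc genes, which are parted from the Klra cluster by Klri1 and Klri2, had low densities, between 7.18 and 30.9 peak bases per kb. Klrc2 (NKG2C; chr6:129647496-129660689) was the sparsest member of all. It had no peak in either wild-type library and 2 and 2 peaks, of 258 and 236 bases in all, in the HDAC7-deficient libraries. Klrc3 held 111 and 0 bases in the wild-type lists against 152 and 363 in the HDAC7-deficient lists, and Klrc1, the gene of the inhibitory NKG2A, held 544 and 263 against 534 and 756. Of the 50-base words, 42.2% were unique in Klrc2, 56.6% in Klrc1 and 64.8% in Klrc3, the 3 lowest shares among the members outside the Klra cluster. The region with a peak in both HDAC7-deficient libraries and in no wild-type library (chr6:129647954-129648175) lies in the last exon of Klrc2, after the coding part. Of its words, 38.3% are unique, and Klrc1 holds a copy of 129 of its bases with 96.1% identity. That copy in Klrc1 was covered by 54 and 0 bp of peak in the wild-type lists against 18 and 3 bp in the HDAC7-deficient lists. Klre1, Klrd1 and Klrk1, which precede the Klrc genes, held means of 96.4, 82.8 and 56.5 peak bases per kb. Klrd1 (CD94, the partner of the NKG2 chains) held 855 and 1350 peak bases in the wild-type lists against 957 and 481 in the HDAC7-deficient lists. Klrk1 (NKG2D) held 729 and 1236 against 809 and 1191, with nearly equal means (ratio 1.02). Klre1, whose product pairs with KLRI1 or KLRI2, held 4 and 4 peaks against 9 and 7, while its bases overlapped.

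Klri1 and Klri2, an inhibitory and an activating partner of Klre1, lay on opposite sides. Klri1 held 1960 and 2174 peak bases in the wild-type lists against 2758 and 2833 in the HDAC7-deficient lists, a ratio of 1.35, and 11 and 13 peaks against 14 and 15. Klri2 held 1191 and 1176 bases in the wild-type lists against 472 and 1045 in the HDAC7-deficient lists, a ratio of 0.641. In neither gene did the genotypes overlap in bases, and the difference between the genes was not tested.

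Among the Klrb1 receptors, Klrb1f was the densest member, at a mean of 217 peak bases per kb, with 3254 and 3359 bases in the wild-type lists against 2938 and 3933 in the HDAC7-deficient lists. The pseudogene Klrb1-ps1 was higher in the HDAC7-deficient libraries in both measures, with 11 and 7 peaks against 19 and 14 and 1744 and 1312 bases against 1872 and 1976. Klrb1a, Klrb1, Klrb1b and Klrb1c had overlapping genotypes in both measures and ratios of bases of 0.930, 1.06, 0.881 and 0.857. Klrb1c, the gene of the antigen used to mark natural killer cells in C57BL/6 mice, was among the 3 sparsest of the other members at 27.8 peak bases per kb, beside Klrc2 and Klrc3.

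Of the Clec2 genes, whose products are ligands of the NKR-P1 receptors, Clec2i (chr6:128887588-128898167, plus strand) was the single member lower in both measures. It held 12 and 17 peaks in the wild-type lists against 11 and 9 in the HDAC7-deficient lists, and 1878 and 2152 against 1417 and 1609 bases, a ratio of 0.751. The region at its start (chr6:128887548-128887875), which overlaps an exon, had a peak in each wild-type list and in no HDAC7-deficient list. The promoter as RefSeq gives it for GRCm38.p6, from 250 bases before to 50 after the start, is shown because it holds that difference, with its 4 CpG sites in capitals.

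Clec2i promoter, chr6:128887337-128887636, plus strand: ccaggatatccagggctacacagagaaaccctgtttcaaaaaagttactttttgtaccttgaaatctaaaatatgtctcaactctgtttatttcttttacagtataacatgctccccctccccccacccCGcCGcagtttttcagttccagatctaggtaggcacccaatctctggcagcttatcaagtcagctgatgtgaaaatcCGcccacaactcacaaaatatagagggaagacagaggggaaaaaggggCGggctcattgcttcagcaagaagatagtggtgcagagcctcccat

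Peaks covered 89 and 74 bp of this promoter in wild-type replicates 1 and 2 and 0 bp in both HDAC7-deficient libraries. A region inside the first part of the gene (chr6:128889545-128890104) went the other way and had a peak in both HDAC7-deficient libraries alone. Clec2d, Clec2e, Clec2g and Clec2h had overlapping genotypes in both measures, with ratios of bases of 1.10, 0.858, 0.993 and 0.859. The densest members after Klrb1f were Clec2d, at 148 peak bases per kb, and the pseudogene Clec2j, at 131.

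The myeloid and dendritic cell receptors lay in the middle of the interval and mostly had a lower mean of peak bases in the HDAC7-deficient libraries. So did 16 of all 27 members outside the Klra genes. Clec12a, an inhibitory receptor of myeloid cells, held 2435 and 2684 peak bases in the wild-type lists against 2191 and 1263 in the HDAC7-deficient lists, a ratio of 0.675, without overlap in bases. Clec12b, Clec1b, Clec9a and Clec7a (dectin-1) had overlapping genotypes and ratios of 0.718, 0.845, 0.939 and 0.839, and Clec1a had a ratio of 1.22. Cd69, an activation gene of the interval that is not a member, held 7 and 8 peaks against 5 and 6, and 1101 and 1718 bases against 577 and 1485.

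Peaks at the promoters of the members differed between the libraries. Of 12 RefSeq promoters of 10 Klra genes, 1 and 2 met a peak in the wild-type lists against 1 and 1 in the HDAC7-deficient lists, each in a different gene (Klra9, Klra5, Klra4, Klra6 and Klra17). Of 26 promoters of 21 other members, 8 and 4 met a peak in the wild-type lists against 1 and 3 in the HDAC7-deficient lists. Klrb1b and Clec2i each have 2 promoters that nearly coincide, and these met wild-type peaks alone. Klrb1b was thus counted 2 times in wild-type replicate 1, and Clec2i 2 times in each wild-type replicate. By gene, the wild-type counts are therefore lower and the genotypes lie closer together. Over all 32851 RefSeq promoters, between 22.2% and 25.3% met a peak. The promoters of Klra9 and Klra3 were the most alike, with 95.4% identity over 284 bases, and that of Klra9 had 47 bp of peak in wild-type replicate 1 while that of Klra3 had none.

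When the peaks of the 4 lists that share at least 1 bp were merged, the interval held 2914 regions. Of these, 95 (3.26%) were gained (a peak in each HDAC7-deficient list and none in the wild-type lists), and 70 (2.40%) were lost, the opposite, against 2.92% and 2.40% of all regions. In all 4 libraries, 322 regions (11.1%) had a peak, against 12.5% of all regions. The Klra genes met 188 regions, of which 10 (5.32%) were gained, 3 lost and 12 (6.38%) present in all 4 libraries. A further 47 (25.0%) were seen in HDAC7-deficient replicate 1 alone, against 11.4% of all regions, and 35 (18.6%) in HDAC7-deficient replicate 2 alone, against 13.7%. The other members met 470 regions, of which 16 were gained, 17 lost and 54 present in all 4.

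The 12 Klra regions shared by all libraries lay in 5 genes, 6 of them in Klra17 or its flank and 2 each in Klra6 and Klra13-ps, and 10 were intronic and 2 in a flank. Of the 10 gained regions, 4 lay at Klra1, 2 each at Klra10 and Klra3 and 1 each at Klra7 and Klra17, with 2 over exons and 5 without a CpG. By bases shared over bases covered (the Jaccard index), the HDAC7-deficient lists overlapped by 0.228 in the Klra genes, the wild-type lists by 0.166, and lists of different genotypes by 0.131 to 0.186. In the other members these values were 0.250, 0.263 and 0.212 to 0.329.

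In windows of 100 kb, 10 of the 30 were higher in peak count in both HDAC7-deficient libraries and 4 lower, against 16.4% and 7.91% of 25882 windows. By bases, 6 were higher and 2 lower, against 8.00% and 13.5%. Of the 6 windows with a Klra gene, 3 were higher and 0 lower by peaks, and 4 higher and 0 lower by bases. Adjacent windows share neighbours and, here, related sequence.

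The rule did not use sequence, and the Klra genes differed from the other members in it. Their windows had 36.6% GC and 4.54 CpG per kb, against 39.6% and 5.74 in the other members and 41.4% and 7.98 in the rest of chromosome 6. Of their 50-base words, 77.7% were unique in the genome, against 87.6% and 89.9%. Across the 40 members the unique share and the mean peak bases per kb had a Pearson r of 0.57 and a Spearman rho of 0.57, a description over genes that share libraries and, in the clusters, sequence. Within the 13 Klra genes r was 0.47 and rho 0.64, and within the 27 others r was 0.49 and rho 0.23. For CpG sites per kb, r was 0.378 and rho 0.447 across the 40 members. These values were 0.686 and 0 within the Klra genes, and 0.0172 and 0.0247 within the others. Over the 30 windows of 100 kb in the interval, rho with peak bases was 0.713 for GC content and 0.670 for the unique share. Over the 1424 windows of the rest of chromosome 6 these values were lower, at 0.384 and 0.230.

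**Figure D5:**
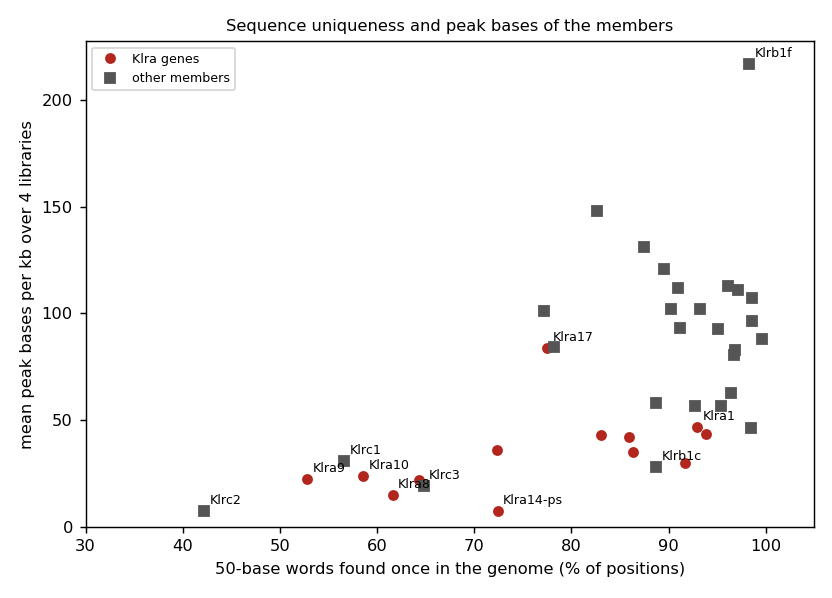
Mean peak bases per kb over the 4 libraries against the share of 50-base words found once in the genome, for the 13 Klra genes (circles) and 27 other members (squares). Klrc2, Klrc1 and Klrc3, between 42.2% and 64.8%, lie among the Klra genes at low density, whereas Klra1, at 92.9%, has 46.7 peak bases per kb and Klrb1f has 217.

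Counted over unique sequence alone, the Klra genes held 31.0 and 42.2 peak bases per kb in the wild-type lists against 54.7 and 54.7 in the HDAC7-deficient lists, between 0.335 and 0.644 times the other members in the same library. The ratio between genotypes over unique sequence was 1.49 ± 0.324, and over repeated words, with 10.5 and 13.7 against 35.8 and 27.4 peak bases per kb, it was 2.61 ± 0.687 (exact permutation p = 0.333 for each). Over repeated words of the other members the ratio was 1.23 ± 0.172, and over those of the rest of chromosome 6 it was 0.908 ± 0.191. Of the CpG sites of the Klra genes, 3.13% and 2.44% lay in a peak in the wild-type lists against 4.58% and 4.58% in the HDAC7-deficient lists, compared with 7.95% and 9.98%, and 7.21% and 8.91%, in the other members.

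Other gene families gave other densities and ratios. The 1407 olfactory receptor (Olfr) genes, the largest tandem family, held a mean of 104 peak bases per kb, with a ratio between genotypes of 1.02 ± 0.188. The 45 MHC (H2) genes, which encode the ligands of many Ly49 receptors among others, held 115, with a ratio of 0.942 ± 0.0828. The 11 Clec4 and Klrg1 genes on the same chromosome held 136, with a ratio of 0.935 ± 0.0984. Of the 50-base words of the latter, 82.1% are unique. The differences between these families and the Klra genes were not tested.

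The genes that act with these receptors in natural killer cells were taken from a list of 31 adaptors, kinases, phosphatases, effectors, transcription factors and ligands elsewhere in the genome. Of the 31, 2 were higher and 4 lower in peaks, and 0 were higher and 10 lower in bases in the HDAC7-deficient libraries. Over all genes these shares were 11.0% and 9.45% for peaks and 12.4% and 16.5% for bases. Tyrobp, the adaptor of the activating Ly49 receptors, held 1774 and 1415 bases in the wild-type lists against 1369 and 895 in the HDAC7-deficient lists. Ptpn11, one of the phosphatases that inhibitory receptors bind, held 7402 and 6656 against 5550 and 6429, and Id2, a transcription factor of innate lymphocytes, held 768 and 540 against 273 and 382. Each of these genes had fewer peak bases in both HDAC7-deficient libraries than in either wild-type library, whereas the peak counts of Tyrobp, 9 and 7 against 11 and 8, overlapped with the higher mean in the HDAC7-deficient libraries. The 2 genes higher in peaks were Vav1 (53 and 50 against 55 and 59) and Prf1 (8 and 7 against 14 and 10). Both overlapped in bases.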

How the data were processed

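Peaks of 5-hmC were analysed in 2 wild-type and 2 HDAC7-deficient hMeDIP-seq libraries; the input libraries were not analysed here. Adapters were trimmed by the authors (cutadapt 1.6 through Trim Galore 0.4.2). They aligned reads (bwa in the methods, Bowtie2 in the submitters' processing notes), removed duplicates with Picard, made an RPKM signal with deepTools, called peaks per library with MACS2 bdgpeakcall and removed peaks that met input peaks. How reads with several matches were placed is not given in the sources used here. The deposited values are peak starts and ends on mm10 (GRCm38), another quantity than counts, so no interval for counting error is given.

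Peaks that met a gene with 2 kb on each side by at least 1 bp were counted, and covered bases summed, over GENCODE M21 genes with Python 3.11.15 and NumPy 2.4.6. Ratios are of genotype means with propagated SDs and two-sided exact permutation tests over the 6 ways to choose 2 of 4 libraries. A gene, window or region was counted as higher or lower when the genotypes did not overlap. Words of 50 bases were searched on both strands of 66 sequences of the genome. Local alignments gave identities between copies. Counting and word search were checked on simulated data. The members and lists were chosen with earlier results of these data known. The text names the Klra members, the main Klr and Clec2 genes and the myeloid Clec genes, members that did not overlap in both measures, the 3 densest and sparsest of each group, Hdac7 and Cd69. Klrh1 is not a gene name in this annotation and is not reported here. The printed copies, regions and promoter were chosen after their values were seen.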

Additional observations from a re-analysis of the deposited data

How the results depend on the processing

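The Klra ratio stayed above 1 under every alternative run, from 1.28 to 1.76 for peaks and from 1.38 to 1.87 for bases when each library was left out in turn, and no alternative could pass a threshold. For the other members, the ratio of peaks was 0.872 with peaks of at least 200 bp in place of 1.07. Their ratio of bases, 0.974, was 1.00 when scaled to the rest of chromosome 6, 1.03 without wild-type replicate 2 and 1.05 without HDAC7-deficient replicate 1, and ranged from 0.895 to 1.05 with a library left out. Leaving out libraries gave 1.04 to 1.10 for their peaks.

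Counts moved more. Members with more peaks in both HDAC7-deficient libraries numbered 5 with peaks of at least 200 bp and 13 with 10 kb on each side, and 13 to 17 with a library left out. Members with fewer peaks numbered 3 under the first 2 settings, 2 by peak midpoint, 5 when scaled to the autosomes or to the rest of chromosome 6, and 3 to 10 with a library left out. By bases, 5 members were higher with peaks of at least 200 bp and 2 lower over the gene body alone. With a library left out 16 to 18 were higher and 6 to 15 lower by bases. Gained regions numbered 49 with peaks of at least 200 bp and 188 to 578 with a library left out, lost regions 38 and 123 to 617, and regions in all libraries 85 and 372 to 468. Leaving out a library asks for fewer peaks, which by construction raises these counts. The cause of the other changes was not tested.

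Same-numbered libraries deviated from their group means with a correlation of 0.202 over 23957 windows, but the labels do not say that a number marks a shared litter or day. With the replicate number as a block, 9 members were lower by bases in place of 4, and the Klra ratios were 1.55 for peaks and 1.63 for bases. Leaving out Klra17 or Klra1 was added after the values had been seen. Depth is unknown, so peaks absent from a list may lie below its cutoff.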
